A study of Mus musculus with 26 samples.

Results

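The 7 genes named Elovl1 to Elovl7 encode the fatty acid elongases of the mouse, and their counts were followed through brown adipose tissue (BAT) of mice kept warm or exposed to cold. The members were taken by symbol, which gave 7 of the 50686 genes listed. RNA-sequencing had been carried out on BAT, labelled supraclavicular, from 26 male C57BL/6J mice aged 12 to 16 weeks. Of these, 7 control mice and 7 labelled FAKO stayed at thermoneutrality (30 °C in the labels), and 5 control mice and 7 labelled FAKO were moved to 5 °C for the final 6 h. Every mouse had first spent 2 weeks at thermoneutrality. FAKO stands for fat-specific Afadin knockout, in which a floxed Afdn (Mllt4) gene is recombined by Cre under the adiponectin promoter. That promoter is active in white as well as brown adipocytes, and the other cell types of BAT keep the gene. The controls were littermates.

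Elongases catalyse the first and rate-limiting step of a cycle in the endoplasmic reticulum that lengthens an acyl-CoA with carbon from malonyl-CoA. The members differ in the acyl chains they accept. Elovl6 acts on palmitate and other products of fatty acid synthase, Elovl1, Elovl3 and Elovl7 on saturated and monounsaturated chains, Elovl2 and Elovl5 on polyunsaturated chains, and Elovl4 makes the longest chains, known from retina, skin and brain. Elovl3 was described early as a gene that cold induces in brown fat.

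All 7 are protein-coding genes. On GRCm38 (mm10) with GENCODE M21, Elovl1 (ENSMUSG00000006390.15) lies on chr4:118428093-118432953 on the plus strand and Elovl6 (ENSMUSG00000041220.10) on chr3:129532355-129638495, also plus. Elovl3 (ENSMUSG00000038754.4) is the shortest gene, chr19:46131897-46135694, on the plus strand. Elovl4 (ENSMUSG00000032262.13, chr9:83778692-83806277, minus) and Elovl5 (ENSMUSG00000032349.13, chr9:77917364-77984519, plus) share chromosome 9. Chromosome 13 holds Elovl2 (ENSMUSG00000021364.15, chr13:41182381-41220405, minus) and Elovl7 (ENSMUSG00000021696.8, chr13:108214404-108285683, plus). Exons of Elovl1 overlap exons of Cdc20 on the opposite strand by 53 bases, those of Elovl3 overlap Pitx3 by 10 bases and those of Elovl6 overlap the antisense gene Gm35986 by 34 bases. The library kit keeps strand, but the strand setting of the counting is not given in the sources used here. A processed pseudogene, Gm11295, is 97.4% identical to Elovl6 over 805 bases. It drew counts equal to 1.88% of those of Elovl6 over all libraries, so reads of this pair may be split between them.

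Promoter windows from RefSeq (GRCm38.p6), from 250 bases before to 30 bases after the transcription start, were matched for 6 of the 7 members, all but Elovl3. The windows of Elovl4, Elovl5 and Elovl6 are shown because these genes span a large, a small and, in control mice, no detected response to cold. Capitals mark the letters found on either strand in a search for the cAMP response element TGACGTCA, the E-box CACGTG, the CCAAT box (read as ATTGG on the other strand) and a direct repeat known to bind nuclear receptors, which has 2 copies of AGGTCA with 1 base between them. No 2 of these matches overlap.
Elovl4 (chr9:83806276-83806555, minus): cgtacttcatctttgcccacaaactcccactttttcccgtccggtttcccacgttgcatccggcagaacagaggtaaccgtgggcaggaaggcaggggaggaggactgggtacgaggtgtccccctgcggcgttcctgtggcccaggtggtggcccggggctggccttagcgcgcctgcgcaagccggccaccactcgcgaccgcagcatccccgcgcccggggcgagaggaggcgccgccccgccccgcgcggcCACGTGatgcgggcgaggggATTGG
Elovl5 (chr9:77917115-77917394, plus): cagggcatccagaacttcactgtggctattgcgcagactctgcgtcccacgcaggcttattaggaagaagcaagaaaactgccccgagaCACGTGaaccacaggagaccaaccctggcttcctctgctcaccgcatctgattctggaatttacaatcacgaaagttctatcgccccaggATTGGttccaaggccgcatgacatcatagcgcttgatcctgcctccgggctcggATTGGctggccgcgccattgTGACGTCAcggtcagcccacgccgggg
Elovl6 (chr3:129532136-129532415, plus): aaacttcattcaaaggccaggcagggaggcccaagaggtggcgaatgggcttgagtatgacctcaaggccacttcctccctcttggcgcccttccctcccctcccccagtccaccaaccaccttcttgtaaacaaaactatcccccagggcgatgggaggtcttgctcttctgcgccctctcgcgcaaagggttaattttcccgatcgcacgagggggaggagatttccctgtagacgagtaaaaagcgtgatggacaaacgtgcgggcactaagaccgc
Elovl5 held a cAMP response element from 4 to 11 bases after the start, an E-box and 2 CCAAT boxes. Elovl4 held an E-box from 6 to 11 bases after the start and 1 CCAAT box, and 1 of the 2 windows of Elovl1, not shown, held 1 CCAAT box. The windows of Elovl2, Elovl6 and Elovl7 held none of the 4. Of 32851 promoter windows of the same length, 1.74% held the cAMP response element, 6.79% the E-box, 36.1% the CCAAT box and 0.0365% the direct repeat. A match describes the letters of the window and was not tested as a binding site.

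Total counts per library ran from 12705969 to 25732258, and 17286 genes passed the filter on low counts. Afdn itself had 151 to 214 CPM (counts scaled to the TMM-adjusted library total) in control mice and 154 to 231 CPM in mice labelled FAKO at thermoneutrality, so the label was not matched by lower Afdn counts there. After cold it had 67.9 to 79.2 CPM in control mice and 53.3 to 65.3 CPM in mice labelled FAKO (log2 fold change -0.33, adjusted p = 0.116 by the quasi-likelihood test of edgeR with p-values adjusted after Benjamini and Hochberg). The label is therefore used as a label throughout. These counts cover the whole gene in whole tissue, where other cell types keep it, so they do not measure recombination in adipocytes. In the paper, the cold rise of Afadin protein in BAT was smaller in FAKO mice than in controls. The paper's figures also compare the genotypes for Afadin protein at thermoneutrality and for Mllt4 mRNA by PCR. Its text gives no values for these comparisons, so they are not set beside the counts here. All 10 brown adipocyte markers were detected, Ucp1 at means of 985 and 811 CPM at thermoneutrality and 16005 and 16429 CPM after cold in control and labelled mice. The 8 skeletal muscle markers summed to between 1.24 and 7550 CPM, and 10 of 26 libraries, spread over all groups, were over 1000 CPM. The 5 red blood cell markers summed to 233 to 1120.0 CPM and 289 to 609 CPM in control and labelled mice at thermoneutrality, and to 417 to 684 CPM and 517 to 1497 CPM after cold. None of these muscle and red blood cell markers was at 0 in a whole group. In whole tissue, fewer cells of a type and less RNA per cell cannot be told apart.

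In the warm, the elongase transcripts of BAT were mostly Elovl6, and after 6 h of cold Elovl3 had become as large a part of the family or larger. Levels were compared between genes as CPM per kilobase of annotated exon. At thermoneutrality in control mice Elovl6 stood at 75.5 ± 17.0 (SD, n = 7), Elovl5 at 18.6 ± 1.85, Elovl1 at 3.25 ± 0.314 and Elovl3 at 0.29 ± 0.249 CPM per kb. Elovl7, Elovl4 and Elovl2 stood below 1 CPM per kb. The first 3 were separated in every library, whereas the ranges of Elovl3, Elovl7, Elovl4 and Elovl2 overlapped from each to the next. The order was the same in mice labelled FAKO, with Elovl6 at 54.2 ± 9.83 (SD, n = 7) CPM per kb.

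After cold the order changed at the top. Elovl3 reached 103 ± 11.4 CPM per kb (SD, n = 5) in control mice, ahead of Elovl6 at 77.7 ± 6.27 in every library, and 138 ± 36.7 (SD, n = 7) against 81.3 ± 24.2 in mice labelled FAKO, where Elovl3 was above Elovl6 within each of the 7 libraries although the ranges overlapped between mice. Elovl5 and Elovl1 followed in both groups, at 24.7 ± 1.81 and 4.05 ± 0.448 CPM per kb in control mice. Elovl4 had moved up by its mean to the fifth place, at 1.34 ± 0.511 CPM per kb in control mice and 0.670 ± 0.339 in labelled mice. In labelled mice its range overlapped that of Elovl7, the next in order.

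As a share of the family's length-scaled sum, Elovl6 made up 76.7% ± 3.50 (SD, n = 7) at thermoneutrality and 36.8% ± 1.83 (SD, n = 5) after cold in control mice. Elovl3 went from 0.299% ± 0.241 to 48.7% ± 1.95. Among mice labelled FAKO the share of Elovl6 was 70.7% ± 3.18 before and 32.3% ± 5.91 after cold, and that of Elovl3 was 0.695% ± 1.14 and 54.2% ± 6.31. The sum of the 7 genes was 97.8 ± 17.5 and 76.3 ± 10.7 CPM per kb at thermoneutrality and 211 ± 17.4 and 252 ± 52.2 CPM per kb after cold, in control and labelled mice. These shares are descriptions, with no test, and a larger share of one gene lowers that of the others. With the longest annotated transcript as the length, the share of Elovl3 in cold control mice was 46.7%.

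**Figure D1:**
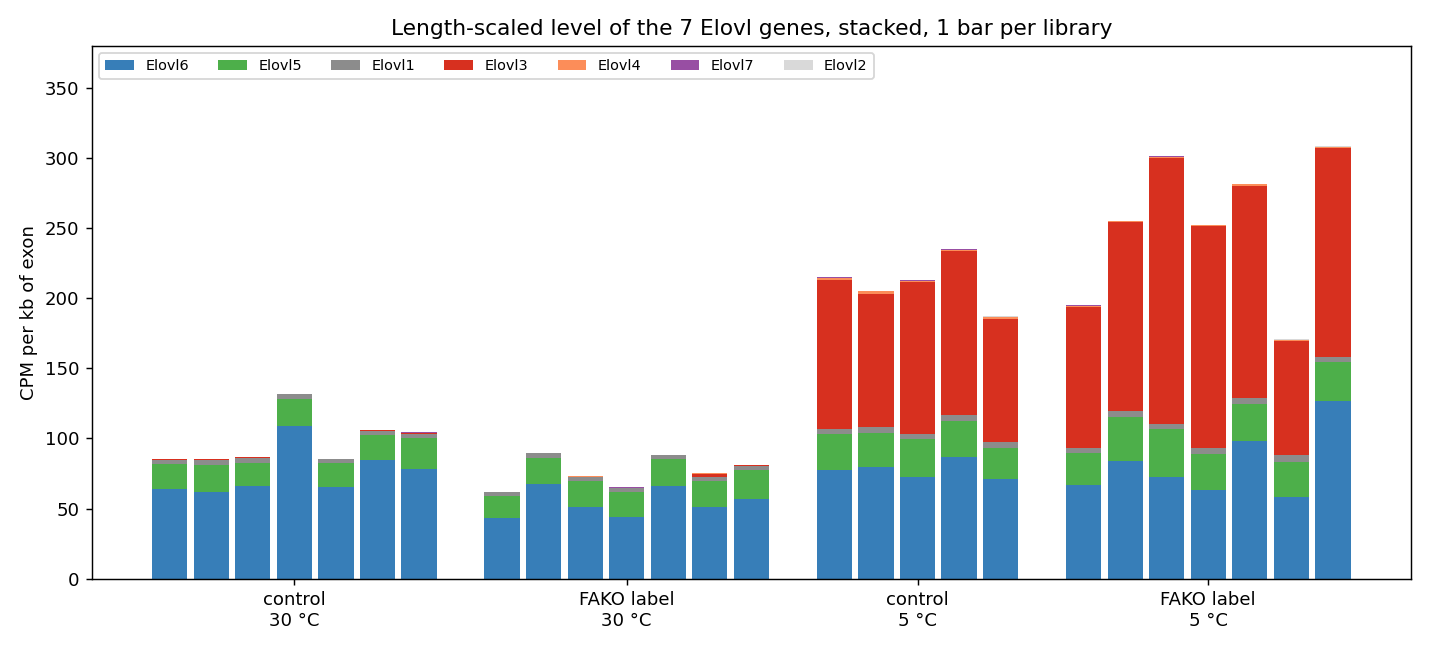
Stacked bars of the length-scaled level (CPM per kb of exon, linear axis from 0) of the 7 Elovl genes, 1 bar for each library, in the 4 groups. Elovl6 (blue) fills most of each bar at 30 °C, and after 6 h at 5 °C Elovl3 (red) adds 48.7% of the sum on average in control mice and 54.2% in mice labelled FAKO.

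Cold raised most of the family. In control mice 5 of the 6 tested members were higher after cold and none was lower, where 31.6% of all tested genes were called higher. In mice labelled FAKO all 6 tested members were higher, where 33.7% of all tested genes were. Elovl2 did not pass the filter on low counts. Elovl4 had 0 to 6 counts in each warm library and 12 to 93 in each cold one. It passed that filter only through the cold groups, so its calls as higher are not independent of the filter. These counts and the medians below include it. With at least 10 counts in every library, when only Elovl1, Elovl5 and Elovl6 were tested, the counts were 2 and 3 in control and labelled mice. The median log2 fold change of the 6 was 0.93 in control mice and 1.15 in labelled mice, beside medians of -0.01 and -0.03 over all genes. Of the 6 tested members in control mice, Elovl3 and Elovl4 did not overlap between temperatures, with all of the cold libraries higher. This held for 23.5% of tested genes. Untested Elovl2 did not overlap either, with 0 to 3 counts in each warm control library against 4 to 11 in each cold one. In labelled mice 5 of the 6 tested members (Elovl1, Elovl3, Elovl4, Elovl5 and Elovl7) did not overlap, as held for 21.1% of tested genes. For Elovl4 the lack of overlap, in both genotypes, is not independent of the filter either. Unless another tool is named, each adjusted p is from the quasi-likelihood test of edgeR, adjusted after Benjamini and Hochberg over the 17286 genes.

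**Figure D2:**
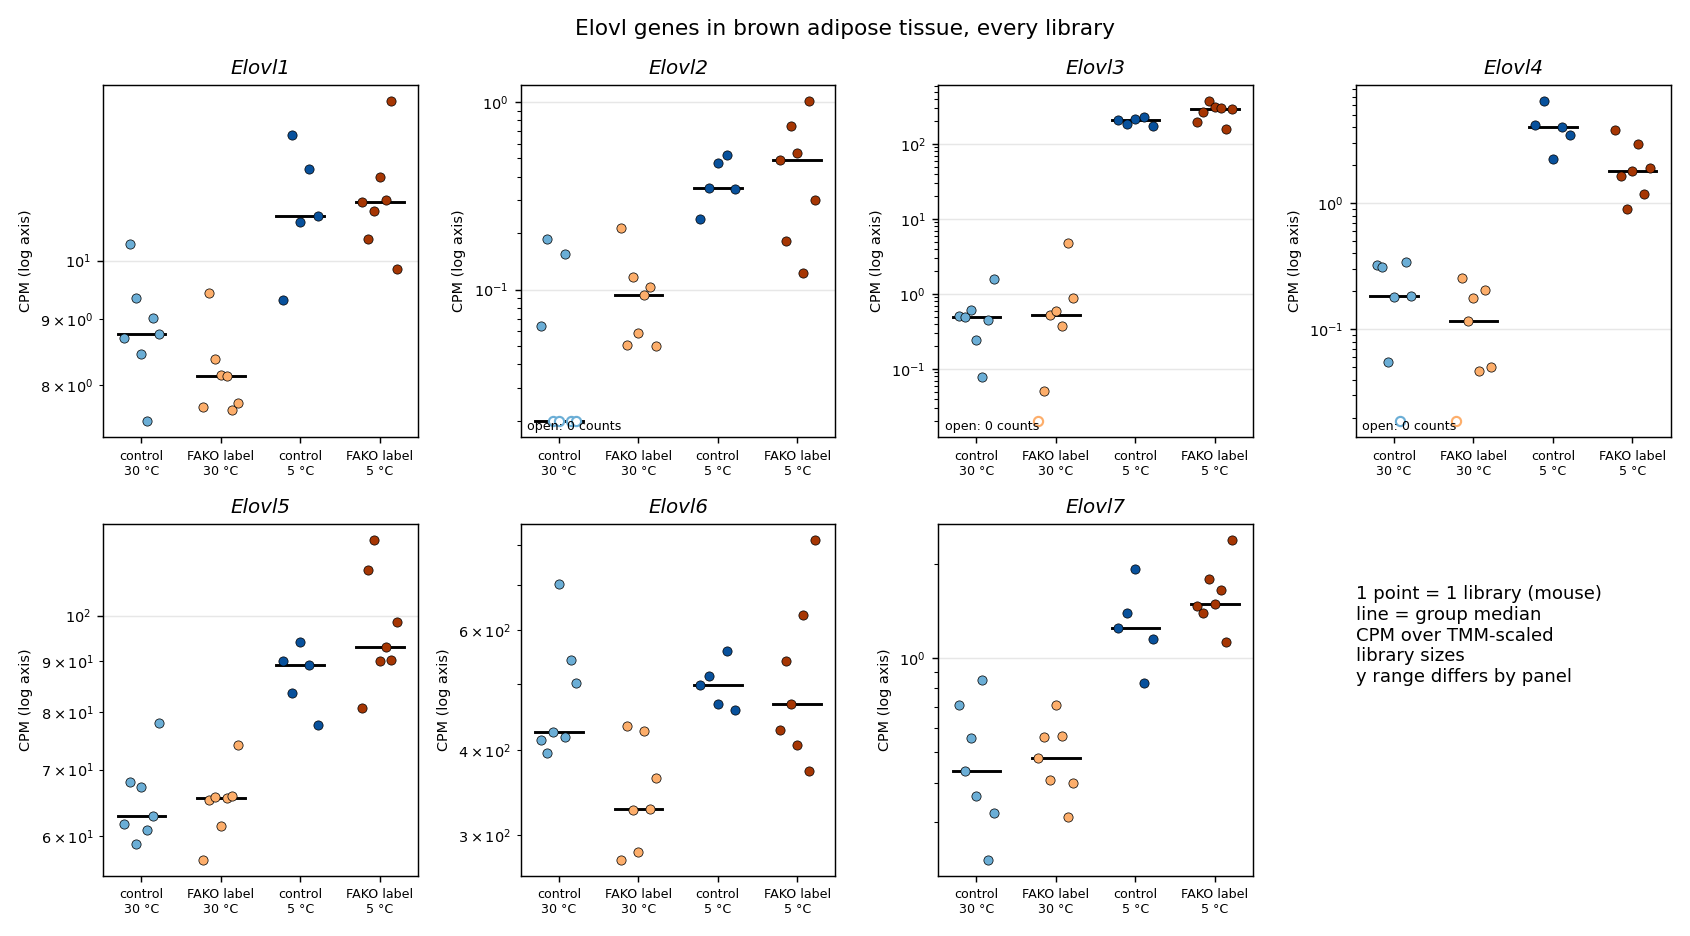
CPM of each Elovl gene in every library on log axes whose range differs by panel, with the group median as a line and libraries with 0 counts as open points. Elovl3 and Elovl4 are separated by temperature in both genotypes, whereas the 5 cold control libraries of Elovl6 lie inside the range of the 7 control libraries at 30 °C.

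Elovl3, which supplies saturated and monounsaturated very long chains in brown fat, went from nearly absent to abundant. At thermoneutrality it had a lowest, median and highest level of 0.0773, 0.499 and 1.61 CPM in control mice and of 0, 0.524 and 4.80 CPM in mice labelled FAKO. The 5 control mice in the cold had 210.5, 187, 214, 231 and 174 CPM. The 7 labelled mice in the cold ran from 161 through a median of 294 to 375 CPM. Every cold library was thus above every warm one by a wide margin, with 2688 to 5245 counts against 0 to 93. The log2 fold change was 8.35 (SE 0.55, adjusted p = 6.30e-13) in control mice, the 5th highest of all tested genes, and 8.02 (SE 0.52, adjusted p = 2.92e-13) in labelled mice, the 3rd highest. As a ratio of group means this was 356-fold and 263-fold. Without labelled mouse 13, described next, the log2 fold change in labelled mice was 9.34.

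The spread of Elovl3 was itself unequal among the groups. The coefficient of variation was 11.0% in cold control mice and 26.6% in cold labelled mice, and 85.9% and 163% at thermoneutrality, where the counts were low. The fit shares its estimate of spread among all 4 groups, so SEs and intervals of Elovl3 do not measure the spread of any single group. Labelled mouse 13 gave the 4.80 CPM at thermoneutrality, from 93 counts. Control mouse 7 held the 1.61 CPM.

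Elovl4, the elongase of the longest chains, rose from the limit of detection to a low level. At thermoneutrality it had 0 to 6 counts in each library, with a lowest, median and highest level of 0, 0.184 and 0.34 CPM in control mice and 0, 0.116 and 0.254 CPM in labelled mice. After cold the control mice had 4.15, 6.48, 2.23, 4.00 and 3.46 CPM. The labelled mice had a lowest, median and highest level of 0.898, 1.79 and 3.84 CPM. The temperatures did not overlap in either genotype. Fitted log2 fold changes were 4.27 (SE 0.43, adjusted p = 1.54e-09) in control mice and 3.99 (SE 0.45, adjusted p = 1.16e-08) in labelled mice, ranked 65th and 92nd from the top. The warm groups together held 24 and 16 counts, so the size of these folds is set by few reads. Elovl4 passed the filter on low counts only through the cold groups, so these p-values and ranks are not independent of the filter.

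Elovl7, an elongase of saturated long chains, followed at a smaller size and at levels near 1 CPM. It had a lowest, median and highest level of 0.227, 0.437 and 0.85 CPM in warm control mice and 0.31, 0.48 and 0.708 CPM in warm labelled mice. In the cold the control mice had 1.25, 1.39, 1.93, 0.832 and 1.15 CPM, of which 1 library fell inside the warm range. The cold labelled mice ran from 1.12 through 1.49 to 2.39 CPM, all above the warm ones. On the log2 scale the change was 1.44 (SE 0.26, adjusted p = 3.03e-05) and 1.71 (SE 0.24, adjusted p = 5.53e-07).

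Elovl5 and Elovl1 had the smallest responses among the 5 members that rose in both genotypes. Elovl5, the elongase of polyunsaturated chains, had a lowest, median and highest level of 58.9, 62.9 and 78.0 CPM in warm control mice and 56.8, 65.6 and 74.1 CPM in warm labelled mice. The cold control mice had 90.0, 83.7, 94.2, 89.3 and 77.7 CPM, all but 1 above the warm range, and the cold labelled mice 80.8, 92.9 and 119 CPM. Its log2 fold change was 0.41 (SE 0.08, adjusted p = 0.000119) in control mice and 0.59 (SE 0.08, adjusted p = 2.01e-07) in labelled mice. Elovl1, which lengthens the saturated chains of sphingolipids, had a lowest, median and highest level of 7.50, 8.76 and 10.3 CPM in warm control mice and 7.64, 8.13 and 9.43 CPM in warm labelled mice. After cold these were 9.31, 12.5, 10.7, 11.8 and 10.8 CPM in the control mice and 9.86, 11.1 and 13.3 CPM in labelled mice. Its response on the log2 scale was 0.31 (SE 0.09, adjusted p = 0.00231) and 0.46 (SE 0.08, adjusted p = 1.24e-05).

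Changes of this size depended on the scaling. With library size alone the median of all genes was -0.14 and -0.34 in the control and labelled mice, and the calls split into 4165 higher and 6243 lower and into 3223 higher and 8384 lower, against 5454 and 5779 and 5825 and 6035 with TMM factors. Elovl1 was then 0.19 (adjusted p = 0.156) and 0.13 (adjusted p = 0.259), and Elovl5 0.27 (adjusted p = 0.0528) in control mice. Relative to the median of all genes these were 0.33, 0.48 and 0.42. With library size alone 3 members passed in control mice and 4 in labelled mice.

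Elovl6, the elongase next to fatty acid synthase and the leading member in the warm, did not respond detectably to cold in control mice. Its lowest, median and highest level was 396, 425 and 702 CPM in the warm, and the cold mice had 499, 513, 468, 559.5 and 458 CPM, all inside that range. The log2 fold change was 0.04 (SE 0.17, 95% interval -0.30 to 0.38, adjusted p = 0.840), and its sign turned with the scaling or filter (-0.08 with library size alone). In mice labelled FAKO the level was 276, 328 and 433 CPM in the warm and 372, 467 and 815 CPM in the cold, with 4 of 7 cold libraries above the warm range. The log2 fold change there was 0.59 (SE 0.15, adjusted p = 0.00135). With library size alone it was 0.28 (adjusted p = 0.177), or 0.62 relative to the median of all genes. The pseudogene Gm11295 had medians of 7.65 and 5.22 CPM in the warm and 10.9 and 10.2 CPM in the cold, in control and labelled mice.

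Elovl2, an elongase of polyunsaturated chains known mainly from liver and retina, was close to the limit of detection. It had 0 counts in 4 of the 7 warm control libraries and at most 3 in the others, and 1 to 4 counts in the warm labelled libraries. The cold control mice had 0.237, 0.348, 0.472, 0.52 and 0.346 CPM, each above the highest warm value of 0.187 CPM, and the cold labelled mice 0.122, 0.489 and 1.01 CPM. Without the filter on low counts, when 34761 genes were tested, its log2 fold change was 2.76 (SE 0.62, adjusted p = 0.000498) in control and 2.21 (SE 0.50, adjusted p = 0.000489) in labelled mice. The warm control group held 6 counts in all.

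**Figure D3:**
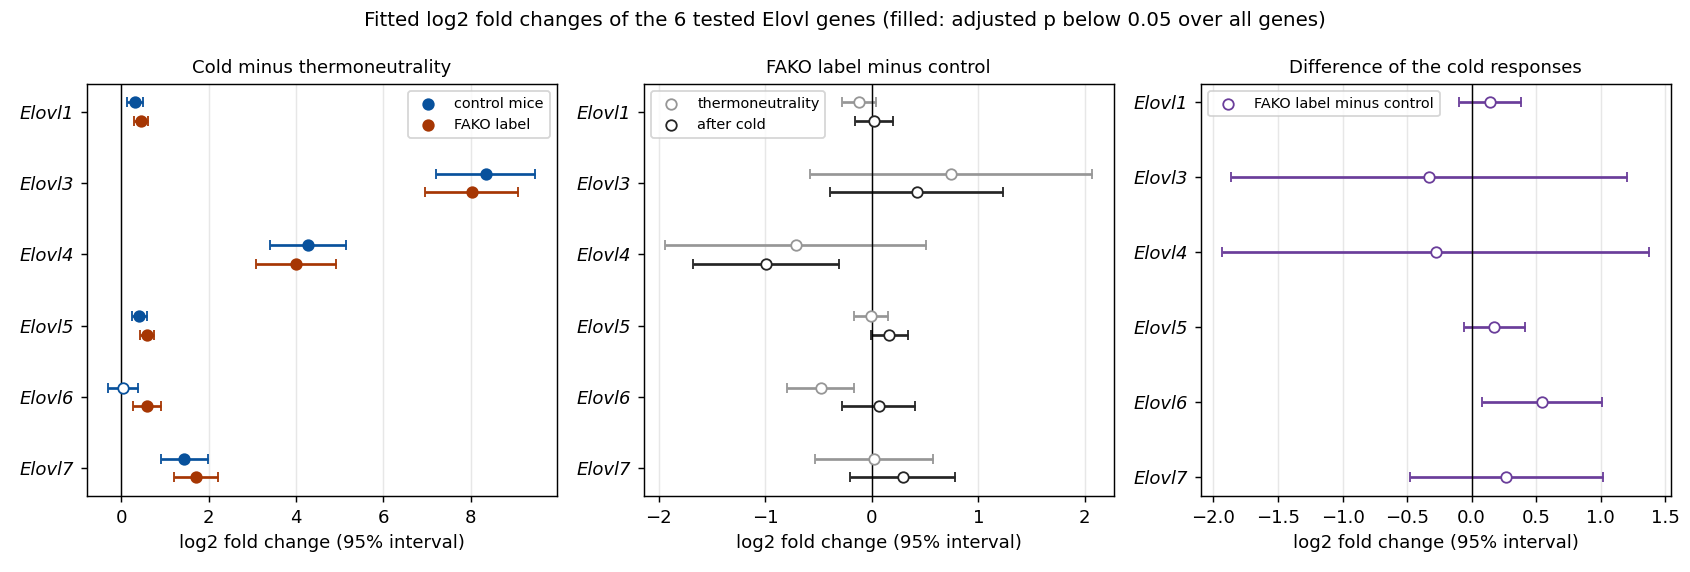
Fitted log2 fold changes with 95% intervals of the 6 tested Elovl genes for cold against thermoneutrality, for the FAKO label against control at each temperature, and for the difference of the cold responses; filled points have an adjusted p below 0.05. The cold responses run from 0.04 (Elovl6, control) to 8.35 (Elovl3, control), and no filled point appears for the label or for the difference.

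Markers of other cell types also moved between temperatures. Their counts stand beside 31.6% of all tested genes higher and 33.4% lower in control mice, and 33.7% and 34.9% in labelled mice. In sets of 5 to 7 genes, 2 called in a direction is near these shares. All 5 red blood cell markers were higher after cold in mice labelled FAKO and 0 of 5 passed the test in control mice. A pass in 1 genotype and not in the other is no test of a difference between them, here and for the markers below. The 7 endothelial markers summed to 499 to 640.5 CPM and 564 to 732 CPM at thermoneutrality and to 783 to 905 CPM and 680 to 924 CPM after cold in control and labelled mice, with 4 of 7 higher in each genotype and 3 and 2 lower. The 6 Schwann cell markers went from 115 to 134 CPM in warm control mice to 74.2 to 94.8 CPM in cold ones, with 2 of 6 lower in each genotype, and from 87.9 to 125 CPM to 76.0 to 110.2 CPM in labelled mice. The 7 lymphocyte markers went from 4.29 to 9.86 CPM to 1.13 to 2.30 CPM in control mice, with 4 of the 6 tested lower, and from 4.13 to 6.96 CPM to a range whose highest value was 20.1 CPM in labelled mice, with 1 lower. The 7 macrophage markers ran from 165 to 240.1 CPM and then 172 to 219 CPM in control mice (2 higher, 3 lower), and from 161 to 204 CPM and then 171 to 302 CPM in labelled mice (4 higher, 2 lower). The part of these cells in the elongase results was not tested. Without the 10 libraries over 1000 CPM of muscle markers, a choice made after seeing the data, 5 and 6 members were again higher after cold, and the log2 fold change of Elovl3 was 8.84 and 7.36. The libraries left out held control mouse 7 but not labelled mouse 13, which had the highest Elovl3 of their warm groups.

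The label did not separate the family at either temperature. At thermoneutrality 0 of 6 tested members passed the test by edgeR, where 0.0810% of all genes did. With DESeq2 the count was also 0, and 1 member (Elovl6) had an unadjusted p under 0.05 by edgeR, as had 7.65% of all genes. Elovl6 was at -0.48 on the log2 scale (SE 0.15, 95% interval -0.79 to -0.17, unadjusted p = 0.00404, adjusted p = 0.390), with 5 of the 7 labelled mice below all 7 control mice. Elovl3 stood at 0.75 (95% interval -0.58 to 2.07, adjusted p = 0.859), and without labelled mouse 13 at -0.59. Without the 10 libraries over 1000 CPM of muscle markers it stood at 1.77 (unadjusted p = 0.0416, adjusted p = 0.591 by edgeR). That fit left out control mouse 7, the highest of its group for Elovl3 (1.61 CPM), and kept labelled mouse 13 (4.80 CPM). Muscle content and the choice of these mice cannot be told apart in it. Elovl4 stood at -0.71 (95% interval -1.94 to 0.51), Elovl1 at -0.12, Elovl5 at -0.01 and Elovl7 at 0.02.

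After cold 0 of 6 members passed the test by edgeR or by DESeq2, where 0.139% of all genes did by edgeR, and 1 (Elovl4) had an unadjusted p under 0.05, as had 13.4% of all genes. Elovl4 had a mean of 2.03 ± 1.03 CPM (SD, n = 7) in labelled mice against 4.06 ± 1.55 CPM (SD, n = 5) in control mice, and 5 of the 7 labelled mice were below every control mouse. The fitted difference on the log2 scale was -0.99 (SE 0.34, 95% interval -1.68 to -0.31, unadjusted p = 0.00636, adjusted p = 0.197). For Elovl3 the means were 272 ± 72.4 CPM (SD, n = 7) and 203 ± 22.4 CPM (SD, n = 5), and the fit gave 0.42 on the log2 scale (95% interval -0.39 to 1.23, adjusted p = 0.682). Of the 7 labelled mice, 5 were above every control mouse for Elovl3 and 1 was below every one. Elovl5 was at 0.17 (95% interval -0.01 to 0.34), Elovl7 at 0.29, Elovl6 at 0.07 and Elovl1 at 0.02. Intervals this wide do not show that the groups were alike. That of Elovl3 rests on an estimate of spread shared by all 4 groups, not on the cold mice alone. Its coefficient of variation was 85.9% and 163% in warm control and labelled mice, and 11.0% and 26.6% in cold ones.

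The cold responses of the 2 genotypes were compared by an interaction term. None of the 6 members passed by edgeR or DESeq2, where 1.16% of all genes did by edgeR, and 1 (Elovl6) had an unadjusted p under 0.05, as had 16.2% of all genes. For Elovl6 the response in labelled mice exceeded that in control mice by 0.55 on the log2 scale (SE 0.23, 95% interval 0.08 to 1.01, unadjusted p = 0.0230, adjusted p = 0.226). The values behind it are the lower level of labelled mice in the warm (mean 348 against 486 CPM) and similar means in the cold (523 and 499.5 CPM). The other 5 differences ran from -0.33 (Elovl3) to 0.27 (Elovl7). That of Elovl3 was 1.02 without labelled mouse 13 and -1.48 without the muscle-rich libraries, and that of Elovl4 moved from -0.28 to -0.99 without the muscle-rich libraries. The muscle-rich libraries include control mouse 7 but not labelled mouse 13, the mice with the highest Elovl3 of their warm groups. The call of Elovl6 in labelled mice and not in control mice is thus not matched by a difference past the threshold.

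The other enzymes of the elongation cycle are a ketoacyl-CoA reductase (Hsd17b12), the hydroxyacyl-CoA dehydratases (Hacd1 to Hacd4) and the enoyl-CoA reductases (Tecr, Tecrl). They moved in both directions in the cold. In control mice 3 of the 6 tested were higher and 3 lower, where 31.6% and 33.4% of all genes were, and in labelled mice 3 were higher and 2 lower, where 33.7% and 34.9% were. Hacd2 had medians of 27.8 and 28.8 CPM in warm control and labelled mice and 189.9 and 223 CPM in the cold, without overlap. Its log2 fold change was 2.68 (SE 0.14, adjusted p = 6.16e-15) and 2.71 (SE 0.13, adjusted p = 1.56e-15).

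Hsd17b12, the reductase of the second step, rose by 1.54 (SE 0.09) and 1.68 (SE 0.09), from means of 133 and 122 CPM to 385 and 391 CPM. Hacd1, a dehydratase known from muscle, rose by 1.03 and 1.09 with at most 12.2 CPM in any library. Hacd4 fell by 1.70 and 1.43. Tecr, the reductase of the last step, went from medians of 120.4 and 110.0 CPM in the warm to 72.2 and 87.2 CPM in the cold. Its fitted response was -0.74 on the log2 scale (SE 0.10, adjusted p = 4.96e-07) in control mice and -0.27 (SE 0.09, adjusted p = 0.0116) in labelled mice. The difference of these 2 responses was 0.47 (adjusted p = 0.0831). Hacd3 was at -0.29 (adjusted p = 0.00617) and -0.12 (adjusted p = 0.185). Tecrl, a heart enzyme, was not tested and had at most 0.715 CPM in any library. The log2 fold changes of Hsd17b12, Hacd1 and Hacd4 passed the test in both genotypes.

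Of the 8 genes that supply malonyl-CoA and palmitate, 6 were lower and 1 higher in control mice, where 33.4% of all genes were lower and 31.6% higher. In labelled mice 4 were lower and 1 higher, where 34.9% and 33.7% of all genes were. The median log2 fold change of the list was -1.61 and -0.78, beside -0.01 and -0.03 over all genes. Fasn, the fatty acid synthase whose product Elovl6 extends, had medians of 5301 and 5901 CPM in the warm and 1217 and 2116 CPM in the cold, and log2 fold changes of -2.69 (SE 0.35, adjusted p = 1.97e-07) and -1.51 (SE 0.30, adjusted p = 6.49e-05). Acly, which makes cytosolic acetyl-CoA, fell by 2.78 and 1.63, and Acaca, the carboxylase that makes malonyl-CoA, fell by 2.48 and 1.57. Elovl6, beside them, was at 0.04 and 0.59. The differences between the genotypes were 1.15 for Acly, 0.91 for Acaca and 1.18 for Fasn, with adjusted p of 0.148, 0.115 and 0.171.

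The desaturases, which work in turn with elongases, were lower or did not pass. In control mice 6 of 8 fell, where 33.4% of all genes did, and in labelled mice 4 of 8, where 34.9% did. The list's median was -1.05 and -0.57. Scd2 had log2 fold changes of -3.28 and -2.77 and Fads1, a desaturase of polyunsaturated chains, of -1.04 and -1.09. Fads3 was at -1.07 in control mice and at -0.50 (adjusted p = 0.0528) in labelled mice. Scd1, chosen after its values were seen because it is by far the most counted desaturase here, had medians of 21955 and 19548 CPM in the warm and 10725 and 19035 CPM in the cold. Its log2 fold change was -1.08 (adjusted p = 0.000423) in control mice and -0.23 (adjusted p = 0.365) in labelled mice, with a difference of 0.85 (adjusted p = 0.188).

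The ceramide synthases, which attach very long chains to sphingoid bases, were lower for 3 of 4 tested in control mice, with Cers2 at -0.73 and -0.61, Cers4 at -0.65 and -0.55 and Cers5 at -0.51 and -0.54 in control and labelled mice, all past the test. In labelled mice 3 were lower and 1 higher. The share of all genes was 33.4% lower in control mice, and 34.9% lower and 33.7% higher in labelled mice. Of 9 tested acyl-CoA synthetases, 4 were higher and 2 lower in control mice and 6 higher and 2 lower in labelled mice. Of all genes 31.6% and 33.7% were higher and 33.4% and 34.9% lower, in control and labelled mice. The counts in control mice are near these shares. Slc27a2, the very long chain synthetase, rose by 2.08 and 2.30, Acsl1 by 2.02 and 2.18 and Acsl4, which prefers arachidonate, by 1.21 and 1.44.

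Of 10 genes for peroxisomal oxidation of very long chains, 4 were higher and 4 lower in control mice and 5 higher and 4 lower in labelled mice. These counts are near the shares of all genes, 31.6% higher and 33.4% lower in control mice and 33.7% and 34.9% in labelled mice. Ehhadh, the bifunctional enzyme, rose by 3.91 and 4.56, whereas the transporter Abcd2, which admits very long chains to the peroxisome, fell by 2.18 and 1.36. Among 14 regulators known for elongase genes, 5 were higher and 7 lower in control mice and 4 higher and 6 lower in labelled mice, against the same shares of all genes. Ppargc1a, a coactivator induced by cold, rose by 4.07 and 3.95. Srebf1, the lipogenic factor known to act on Elovl6, fell by 3.38 and 3.33, and the clock repressor Nr1d1 fell by 1.32 and 1.24. For the label and the difference of the cold responses, 0 genes of these lists passed by edgeR. Of all 17286 genes 14 and 24 passed for the label at thermoneutrality and after cold, and 200 for the difference. By DESeq2 the difference passed for 1 elongation cycle gene and 1 supply gene, where 466 of all 17286 genes passed. With library size alone, in labelled mice, 3 of 9 tested synthetases and 3 of 10 peroxisomal genes were higher. Of 14 regulators 2 were then higher and 10 lower. In that setting 3223 of all 17286 genes were higher and 8384 lower.

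**Figure D4:**
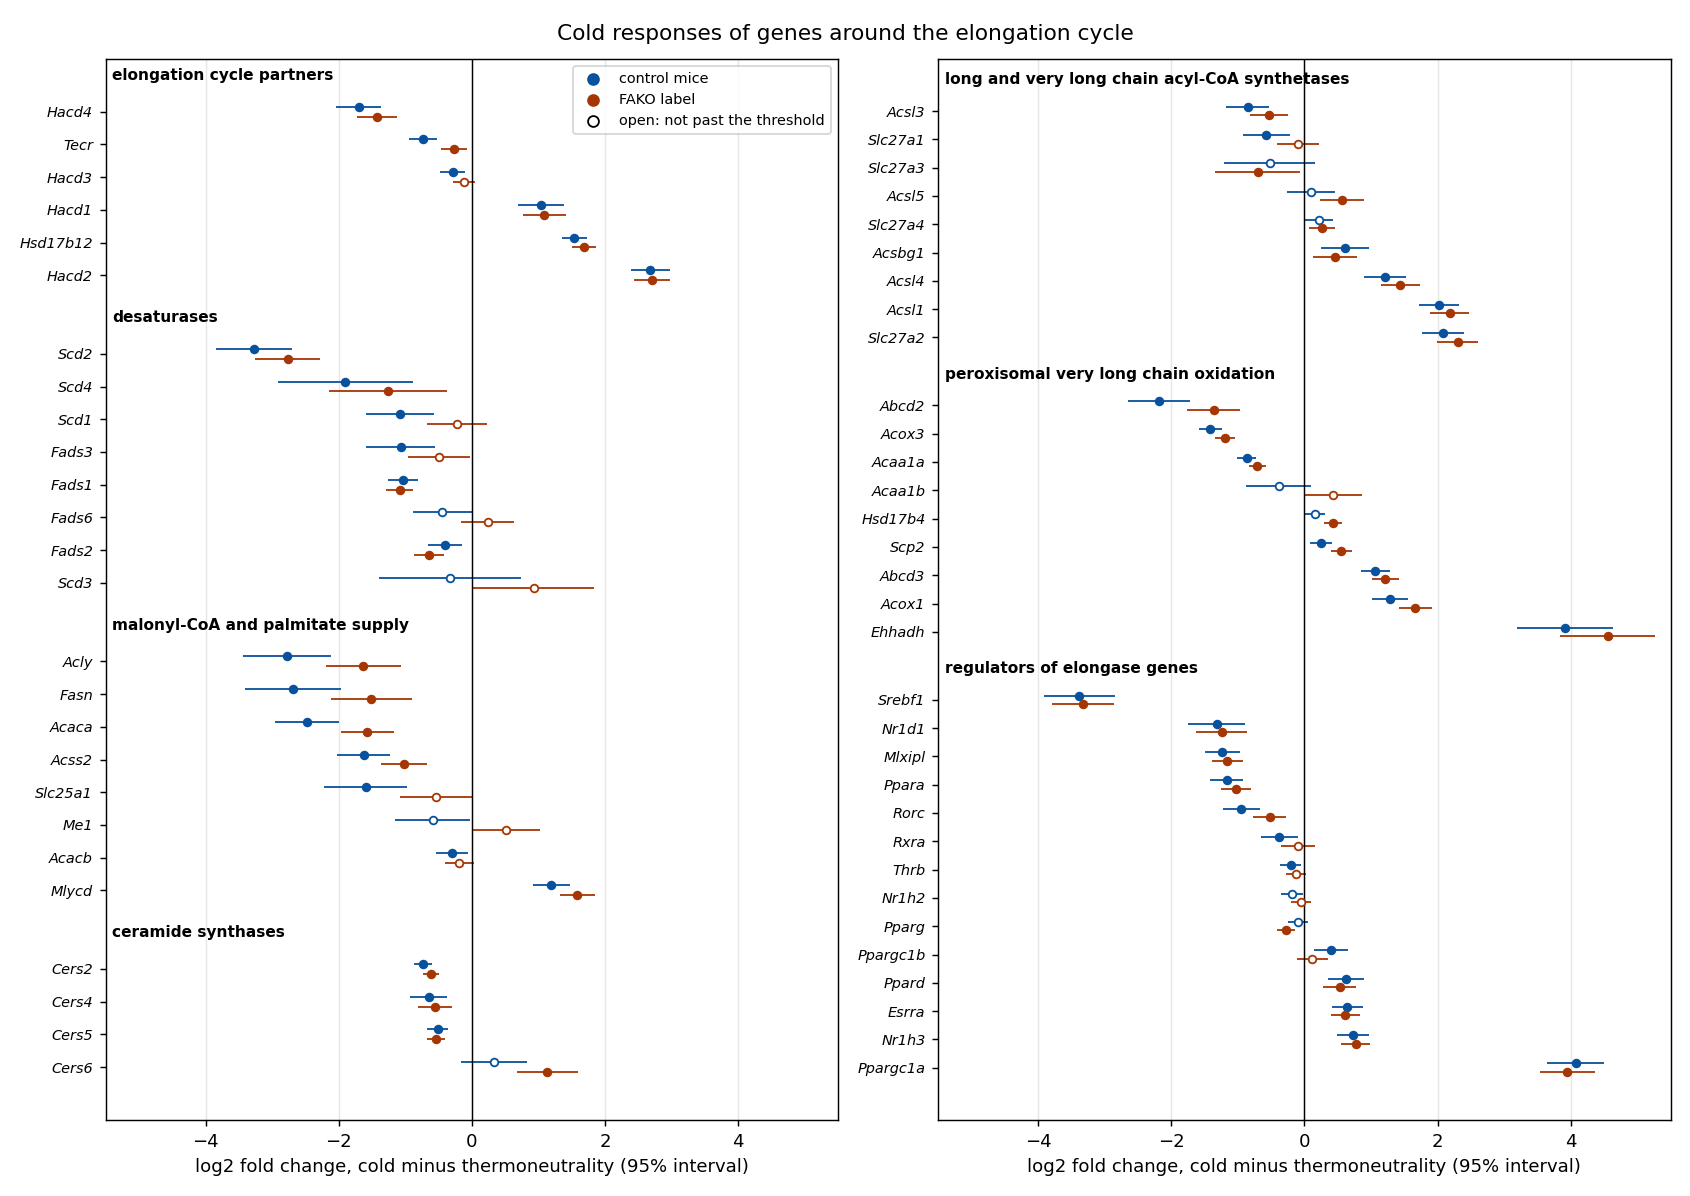
Log2 fold changes of cold against thermoneutrality, with 95% intervals, for genes of 7 lists around the elongation cycle in control mice and mice labelled FAKO; open points did not pass an adjusted p of 0.05. Hsd17b12 and Hacd2 lie to the right of 0 (1.54 and 2.68 in control mice), and Fasn, Acly and Acaca to the left (-2.69, -2.78 and -2.48).

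Over the 26 libraries the genes most like each member in log2 CPM were listed by Pearson's r among 14224 genes (14225 for Elovl7). These r are descriptions over libraries that share the cold response and the library scaling. For Elovl3 they were Apmap (r = 0.989), Adam12 (0.988) and the dehydratase Hacd2 (0.988). For Elovl4 they were Smcr8 (0.966), Tmem64 (0.962) and Aspa (0.959), for Elovl7 Aifm2 (0.920), Cavin2 (0.919) and Fam107a (0.914), for Elovl5 Oaf (0.952), Pex16 (0.947) and Vwa8 (0.936), and for Elovl1 Thbs1 (0.916), Vcl (0.912) and Glipr2 (0.910). Elovl6 was most like its pseudogene Gm11295 (0.926), then Ubl5 (0.808) and Ctsd (0.802).

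After subtraction of the group means, which removes the cold response, r was smaller. Elovl3 was then most like Apmap (0.765), Ccdc69 (0.765) and Mmd2 (0.763), Elovl5 like Sod1 (0.820), 1700037H04Rik (0.809) and Oaf (0.802), and Elovl6 like Gm11295 (0.901), Tmem120b (0.854) and Mrps15 (0.819). Elovl4 was most like Ankrd40 (0.737), Atp6v1h (0.735) and Aspa (0.703), Elovl1 like Emp1 (0.732), Me2 (0.723) and Anxa2 (0.716), and Elovl7 like Gm37788 (0.717), Cds1 (0.695) and Slc25a26 (0.685). Between members, Elovl3 and Elovl4 had r = 0.911 over all libraries and 0.25 within groups, and Elovl3 and Elovl6 had 0.43 and 0.03. The highest value between members within groups was 0.43, for Elovl3 and Elovl5, and the lowest was -0.62, for Elovl2 and Elovl6, of which Elovl2 had at most 18 counts in a library.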

How the data were processed

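RNA-sequencing of BAT from 26 mice was used, grouped by the sample labels into 4 groups of genotype and temperature. A stranded kit with rRNA depletion was used for the libraries. The deposited values are raw counts per gene, which the authors obtained by alignment to mm10 (STAR 2.5.2b) and featureCounts 1.5.2. Total counts per library ran from 12705969 to 25732258. Every same-group pair of libraries (73) differed by more than sampling noise (lowest chi-square per gene 4.92).

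Genes were named with GENCODE M21 (50462 of 50686 IDs). Tests used R 4.3.3 with edgeR 4.0.16 (legacy quasi-likelihood, TMM factors, filterByExpr by group, 17286 genes) and 1 term per group, after the model the authors ran in edgeR 3.22.0, with Benjamini-Hochberg adjustment and a threshold of 0.05. Intervals are at 95%. CPM used TMM-scaled library sizes. A prior count of 2 entered log2 CPM. The fit was tested on simulated data with 200 changed genes. Near copies were sought with BLAST and promoters taken from RefSeq.

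Named were all 7 members, Afdn, every elongation cycle gene, up to 3 genes of each other list with the largest cold change in control mice, past the threshold and without overlap, and the 3 genes most like each member on each scale (mean of at least 1 CPM). The members and lists were chosen with earlier results of these data known, and the motifs after the data were seen. Alternatives were DESeq2 1.42.0, library size alone, upper-quartile factors, no filter, at least 10 counts in every library, the revised quasi-likelihood method, robust empirical Bayes, only the groups compared, another gene length, and leaving out each library. The reads were not used here, and 1 gene that the rule names is not reported here.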

Additional observations from a re-analysis of the deposited data

Results flagged for a closer look

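In 4 of the 28 combinations of an Elovl gene and a group, the highest library stood apart from the rest by Dixon's test at the 95% level. Chance gives this in about 1 of 20 groups of normally distributed values. The test was run on CPM, and the low counts of Elovl2 and of warm Elovl3 need not follow that distribution. Elovl3 in labelled mouse 13 at thermoneutrality had 4.80 CPM, and the next library of that group 0.899 CPM. Control mouse 7 at thermoneutrality had 1.61 CPM of Elovl3, next to 0.609 CPM. Elovl1 reached 9.43 CPM in labelled mouse 9 at thermoneutrality, above 8.38 CPM. For Elovl2 it was labelled mouse 8 at thermoneutrality, with 0.213 CPM from 4 counts, above 0.116 CPM. No library after cold stood apart for any member, and 0 of 6 differences of the cold responses passed the test.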

How the results depend on the processing

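The count of members higher after cold was 5 in control mice and 6 in labelled mice under most settings. It was 3 and 4 with library size alone, 6 and 7 without a filter, when Elovl2 was tested too, and 2 and 3 with at least 10 counts in every library, when only Elovl1, Elovl5 and Elovl6 were tested. With each library left out in turn, the counts were 5 to 5 and 6 to 6, and 0 to 0 for the label at each temperature and for the difference. Elovl6 in cold control mice turned to -0.0815 (library size), -0.0680 (upper quartile), -0.0047 (at least 10 counts) and -0.0054 (only the groups compared). For the label at thermoneutrality Elovl1 turned to 0.0259 (library size), Elovl5 to 0.13 (library size), 0.0195 (upper quartile), 0.0041 (no filter, and only the groups compared), 1.7e-05 (at least 10 counts) and 0.0656 (without the muscle-rich libraries), and Elovl7 to -0.12 (without the muscle-rich libraries). After cold Elovl1 turned to -0.0280 (library size), -0.00081 (upper quartile) and -0.0440 (without the muscle-rich libraries). The differences of the cold responses turned to -0.0539 for Elovl1 and -0.0114 for Elovl5 with library size. The cause was not tested. None of these reversed values had passed the threshold.

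With a library left out, values that changed sign ran from -0.0035 to 0.15 for Elovl6 in cold control mice. For the label at thermoneutrality they ran from -0.59 to 1.33 for Elovl3, -0.0335 to 0.0544 for Elovl5 and -0.10 to 0.18 for Elovl7. For the label after cold they ran from -0.0333 to 0.0703 for Elovl1 and -0.0747 to 0.13 for Elovl6. For the difference they ran from -0.90 to 1.02 for Elovl3 (1.02 without labelled mouse 13) and -0.50 to 0.0066 for Elovl4. Over all genes, 14, 24 and 200 were called for the label at each temperature and for the difference, and 42, 198 and 466 by DESeq2, 34, 5 and 278 with library size alone, 9, 15 and 27 without a filter, 13, 45 and 258 with at least 10 counts, and 13, 5 and 31 without the muscle-rich libraries. Single libraries moved these counts. They ran from 7 to 93 at thermoneutrality (93 without control mouse 7), from 7 to 100 after cold (7 without control mouse 19, 100 without labelled mouse 22) and from 49 to 371 for the difference (49 without labelled mouse 8, 371 without control mouse 7). The label's calls with only the groups compared were 14 and 9. The median of all genes for the label at thermoneutrality moved from -0.02 to 0.13 with library size alone, and for the difference from 0.04 to -0.15. Low counts limit Elovl2, Elovl4 and Elovl7. No paired analysis was possible because the groups share no replicate number.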
